A study of Mus musculus with 6 samples.

Results

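Havcr2, the gene of the co-inhibitory receptor TIM-3, was followed across libraries of CD4 T cells from mouse liver. It is 1 of the 750 genes in the deposited nCounter table and was taken from that table by its symbol. It was chosen by its deposited log2 values in these same libraries, FFC against Chow, set against genes of similar level and each library's median. Its values and these comparisons are therefore given as a description with no test. There were 6 libraries. The 3 labelled FFC are described as MASH, and the 3 labelled Chow are described as controls. In this field FFC usually names a diet rich in fat, fructose and cholesterol, and MASH is metabolic dysfunction-associated steatohepatitis. Neither is spelled out in the labels. The strain, sex and age of the mice, the length of feeding and the way the CD4 T cells were isolated are not stated in the labels. The series calls the 3 libraries of each group biological replicates.

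TIM-3 is a transmembrane protein with an immunoglobulin domain and a cytoplasmic tail that carries tyrosines. It was first described on interferon gamma-producing T helper cells and cytotoxic T cells and is widely used as a marker of T cells that have been stimulated for a long time. Galectin-9, CEACAM1, HMGB1 and phosphatidylserine have been reported as ligands. Macrophages, dendritic cells and NK cells also make TIM-3, so that the cell types present in a preparation bear on its level.

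In the nCounter assay each RNA is bound by a probe with its own colour barcode, and the barcodes are imaged and tallied with no amplification step. The deposited log2 values turned out to be log2 of a whole count times 1 scale factor per library, so that counts could be recovered. These summed to between 623212 and 693640 in the FFC libraries and between 726836 and 900322 in the Chow libraries. The scale factors were 1.18, 1.26 and 1.11 in FFC 1 to 3 and 0.774, 0.707 and 1.10 in Chow 1 to 3, so that the deposited scale raises FFC values relative to those of Chow 1 and Chow 2. Genes of T cells were abundant in every library. Cd3e, a chain of the T cell receptor complex, had 1954, 2030 and 1547 counts in FFC and 2168, 2163 and 1838 in Chow. Cd4 itself had 1134, 1294 and 1454 counts in FFC and 1268, 1050 and 853 in Chow.

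The sequence around the start of Havcr2 is shown because several factors that have been linked to its transcription were measured on the same panel. It is the RefSeq promoter window of GRCm38.p6, chr11:46454681-46454980 on the plus strand, with 250 bases before the start and 50 after it. Letters matching TGANTCA, the motif of AP-1 factors such as Jun, are in capitals.
Havcr2 promoter: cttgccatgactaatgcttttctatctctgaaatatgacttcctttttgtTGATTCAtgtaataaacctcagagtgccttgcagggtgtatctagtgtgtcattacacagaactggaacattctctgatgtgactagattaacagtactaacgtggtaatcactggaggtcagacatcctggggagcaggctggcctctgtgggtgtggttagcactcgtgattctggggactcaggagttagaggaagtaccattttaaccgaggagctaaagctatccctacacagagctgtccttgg
This motif occurred 1 time, with its first base 200 bases before the start, and 7.93% of 27025 promoter windows of the same length hold it on either strand. The letters GGTGTGA (T-box factors such as Tbx21), GGAAA (NFAT) and TTCNNNGAA (STAT factors) are not in the window on either strand. They are found in 3.96%, 61.3% and 8.47% of the windows. No motif overlapped another in the Havcr2 window.

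Havcr2 was higher in every FFC library than in any Chow library. The recovered counts were 343, 366 and 403 in FFC 1 to 3, against 49, 54 and 57 in Chow 1 to 3. The 3 FFC counts lay close together, the 3 Chow counts did too, and the lowest FFC count was 6.02 times the highest Chow count. The means were 370.7 ± 30.3 counts in FFC and 53.3 ± 4.04 in Chow (SD, n = 3 each), a ratio of 6.95. Since these are bulk samples, more TIM-3-bearing cells and more Havcr2 RNA per cell cannot be told apart.

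On the deposited log2 scale Havcr2 stood at 8.66, 8.85 and 8.81 in FFC and at 5.24, 5.26 and 5.97 in Chow. The group means were 8.77 ± 0.10 in FFC and 5.49 ± 0.42 in Chow (SD, n = 3 each). FFC minus Chow was therefore 3.28 on the log2 scale, or 9.74-fold, and the lowest FFC value exceeded the highest Chow value by 2.69. All 3 Chow values lay under a background floor made from genes of other organs, and with values raised to it the difference was 1.79, or 3.46-fold. Chow 3 was the highest Chow library on this scale, by more than it was in counts, because its scale factor was above those of Chow 1 and Chow 2.

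The order of the libraries was FFC 3, FFC 2, FFC 1, Chow 3, Chow 2 and Chow 1 by count. Exact Poisson 95% intervals, which cover counting error only, were 365 to 444 counts for FFC 3, 329 to 405 for FFC 2 and 308 to 381 for FFC 1. They were 43.2 to 73.9 for Chow 3, 40.6 to 70.5 for Chow 2 and 36.3 to 64.8 for Chow 1. Neighbours within each group overlapped in these intervals, and no FFC interval reached a Chow interval. On the deposited scale FFC 2 came before FFC 3, and the order of the other libraries was the same.

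The share of the panel that lay below Havcr2 within one library does not depend on how libraries were scaled to each other. It was 47.9%, 46.7% and 56.7% of the other genes in FFC 1 to 3, against 3.87%, 3.87% and 4.41% in Chow 1 to 3. Havcr2 thus sat in the middle of the panel in FFC and among its lowest genes in Chow, where only 29, 29 and 33 genes had a lower value. The mean share was 50.5% ± 5.47 in FFC and 4.05% ± 0.308 in Chow (SD, n = 3 each). Probes differ in efficiency, so a place in this order is not a ranking of transcript numbers, and the comparison is of the same probe between libraries. Gzma, the gene of the granule protease granzyme A, was the 1 tested gene whose mean share differed more (51.4 percentage points, against 46.4 for Havcr2).

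**Figure D1:**
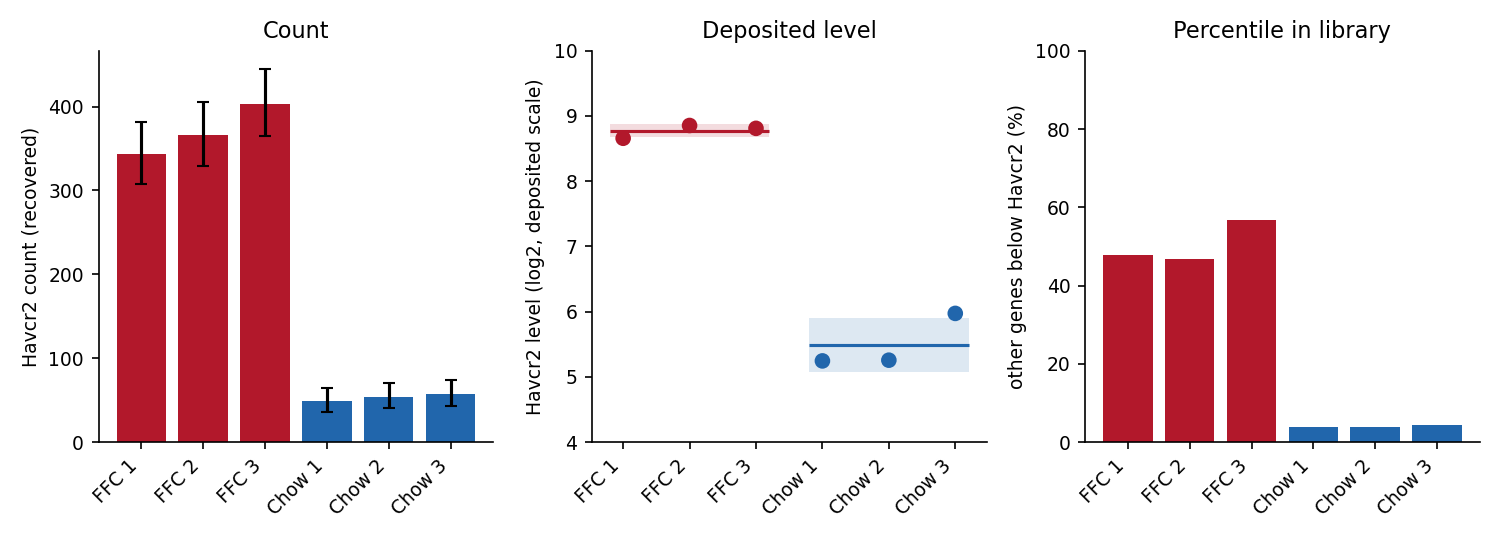
Havcr2 in each of the 6 libraries, as recovered count (left, bars with exact Poisson 95% intervals), as deposited log2 level (middle, points with group mean as a line and SD as a band, n = 3) and as the percentage of the other panel genes with a lower value in the same library (right). The FFC libraries had 343 to 403 counts and the Chow libraries 49 to 57, and no library crossed between the groups in any of the panels.

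The pair of libraries with nearly equal scale factors gave a similar picture. FFC 3 and Chow 3 had factors of 1.11 and 1.10, and Havcr2 had 403 counts in FFC 3 and 57 in Chow 3, a ratio of 7.07. Across all 9 pairs of an FFC and a Chow library the ratio of counts ran between 6.02 and 8.22, and the ratio of deposited values between 6.43 and 12.2. After subtraction of each library's median (centring) Havcr2 stood at -0.10, -0.10 and 0.34 (log2) in FFC and -2.95, -2.95 and -2.66 in Chow, a difference of 2.90. Without any scaling the mean difference of log2 counts was 2.80.

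The Chow level of Havcr2 was at the bottom of the measured range. As a guide to low signal, 4 genes typical of other organs, among them Tg of the thyroid, Ins2 of the pancreas and Mbp, a myelin gene of which immune cells also make a form, averaged 133.5, 153.8 and 123.8 counts in FFC 1 to 3 and 101, 97.3 and 102 counts in Chow 1 to 3. Havcr2 was above that mean in all FFC libraries and below it in all Chow libraries. A floor was set per library at the mean of these 4 genes plus 2 SD, 184, 198 and 194 counts in FFC and 142, 151 and 156 in Chow. Havcr2 exceeded it in 3 FFC and 0 Chow libraries. Tg was itself higher in FFC in limma's moderated test (a difference of 1.05, adjusted p = 0.034), and Ins2 differed by 0.94 (adjusted p = 0.055). The part of such a shift at low counts in the difference of Havcr2 was not tested.

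Low values were in general higher in FFC, so Havcr2 was set beside genes of its own level. The 50 genes nearest to it in mean Chow level, between 5.02 and 5.996 on the log2 scale, had a median FFC minus Chow difference of 0.94, against 0.43 over all 748 tested genes. Of these 50, 47 were above 0 and 3 below, with a range of -0.95 to 1.54. Havcr2, at 3.28, lay outside that range by more than the median difference of its neighbours. The gene was chosen with this comparison in view, so its place there is a description and no separate support. In limma's moderated test 19 of the 50 passed as higher and 0 as lower, beside 17.4% and 0.936% of all tested genes. The neighbours that differed most were Cd96, a co-inhibitory receptor gene (1.54), Siglec1, a sialic acid-binding receptor gene of macrophages (1.37), and Card9, an adaptor gene of innate signalling (1.31). The neighbours had a median of 83.2 mean counts in FFC and 63.7 in Chow, and the highest FFC mean among them was 126.3 counts (Siglec1), against 370.7 for Havcr2. In mean place within the library the highest neighbour, Siglec1, lay above 15.4% of the panel in FFC, and Havcr2 above 50.5%.

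Seen from the other side, the 50 genes nearest to Havcr2 in mean FFC level had a median difference of 0.19 and a median of 377.5 mean counts in FFC and 460.7 in Chow. None of them had a Chow mean as low as that of Havcr2. The lowest was Pf4, a platelet chemokine gene that macrophages also express, with a mean of 392 counts in FFC and 87.3 in Chow.

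**Figure D2:**
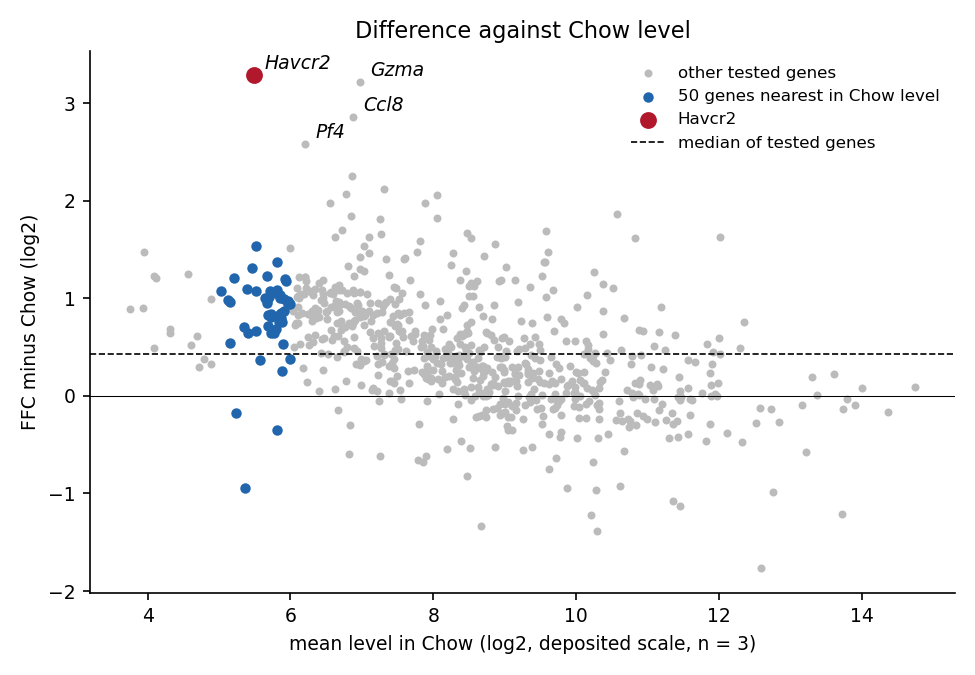
FFC minus Chow difference (log2, deposited scale) of the 748 tested genes against their mean Chow level (log2, n = 3), with Havcr2 in red, the 50 genes nearest to it in Chow level in blue and the median of all tested genes (0.43) as a dashed line. Havcr2 stood at 3.28, above all 50 blue points, which reached 1.54.

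Among the 748 tested genes Havcr2 had the largest FFC minus Chow difference on the deposited scale. Gzma (3.22), Ccl8, a chemokine gene (2.85), and Pf4 (2.58) came next. Gzma had 1932, 607 and 818 counts in FFC and 146, 317 and 71 in Chow, a wider scatter within each group than that of Havcr2. The gap between the lowest FFC and the highest Chow value was 2.69 for Havcr2 and 1.78 for Gzma, the next in that order. The groups did not overlap, with FFC higher, for 34.4% of the tested genes on the deposited scale and for 28.2% after centring. This also held for Havcr2 on both. Of the 50 genes nearest to it in Chow level, 33 were apart in this way on the deposited scale. The order by difference depended on the scale and on single libraries. Gzma differed more than Havcr2 under quantile normalization (2.76 against 2.65) and cyclic loess (2.86 against 2.53), and Havcr2 was 12th of the 748 with the background floor. Gzma also differed more without FFC 2 (3.52 against 3.24), without FFC 3 (3.40 against 3.27) and without Chow 2 (3.63 against 3.17), and Ccl8 without both libraries of number 3 (3.69 against 3.51). The SD of Havcr2 among the FFC libraries was 0.10 on the deposited scale, where 683 tested genes had a larger one, and 0.25 after centring, where 299 did. The evenness of Havcr2 among the FFC libraries on the deposited scale was thus not seen after centring.

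Havcr2 was next set against the genes of the cells that make TIM-3, as ratios of counts within a library. Per 100 counts of Cd4 there were 30.2, 28.3 and 27.7 counts of Havcr2 in FFC and 3.86, 5.14 and 6.68 in Chow. Per 100 counts of Cd3e there were 17.6, 18.0 and 26.1 in FFC and 2.26, 2.50 and 3.10 in Chow. Relative to both T cell genes Havcr2 was higher in every FFC library than in any Chow library. Relative to the mean of 9 T cell genes the difference was 2.96 on the log2 scale. In limma's moderated test 2 of these 9 passed as higher on the deposited scale, Cd4 (0.79, adjusted p = 0.044) and Cd3g (0.91, adjusted p = 0.043), beside a background of 17.4% of the tested genes called higher and 0.936% called lower. After centring 0 of the 9 passed (0 at an unadjusted p under 0.05, 0 by voom), where the background was 14.4% higher and 4.81% lower. Neither Cd4 nor Cd3g passed without FFC 1, FFC 2, Chow 1 or Chow 2, where 1, 1, 7 and 2 genes of the panel were called.

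Most of the macrophage and monocyte genes measured were higher in FFC too. The 9 that were measured of a list of 22 summed to 4898, 6298 and 2808 counts in FFC and to 1725, 1921 and 2455 in Chow, so that the groups did not overlap, and none of the 9 was at 0 in any library. In limma's moderated test 6 of the 9 rose and 0 fell (6 and 0 after centring), against that background of 17.4% and 0.936%. Their median difference was 1.98 on the log2 scale (1.59 after centring), against 0.43 over all tested genes (0.04 after centring). C1qa, a chain of the complement component C1q, rose by 2.26 (adjusted p = 0.027), Fcgr1, an Fc receptor gene, by 2.12 (adjusted p = 0.030), and Fcgr4, another, by 2.07 (adjusted p = 0.024). Cd14, a co-receptor for bacterial lipopolysaccharide, had 319, 371 and 425 counts in FFC and 410, 333 and 424 in Chow (difference 0.42, adjusted p = 0.32), and Cd68 and Cd163 did not pass either (adjusted p = 0.22 and 0.082). The count of 6 was 0 without FFC 1, FFC 2, Chow 1 or Chow 2, where the whole panel had 1, 1, 7 and 2 calls. In each of these fits 6 of the 9 still had an unadjusted p under 0.05. The count was 6 without FFC 3, 8 without Chow 3 and 9 without both libraries of number 3. Over the 748 tested genes 229, 284 and 460 were called higher without FFC 3, Chow 3 and both.

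The libraries did not line up in the same order for Havcr2 and for these genes. FFC 3 had the highest Havcr2 count and the lowest FFC count of 8 of the 9 macrophage and monocyte genes. FFC 3 had the smallest total count, and it was the lowest FFC library for 443 of the 748 tested genes (59.2%) and for 95 of the 130 called higher (73.1%). Its summed count for the 9 was 1.14 times that of Chow 3, at nearly the same scale factor, while its Havcr2 count was 7.07 times that of Chow 3. By gene 8 of the 9 counts were higher in FFC 3 than in Chow 3, by up to 1.75 times (Fcgr4). Cd68, the exception, a lysosomal protein gene of macrophages, had 225 counts in FFC 3 and 434 in Chow 3, C1qa had 288 in FFC 3 and 183 in Chow 3, and Cd14 had 425 in FFC 3 and 424 in Chow 3. Per 100 counts of C1qa there were 61.6, 57.2 and 139.9 counts of Havcr2 in FFC and 46.7, 40.0 and 31.1 in Chow. Per 100 counts of Cd14 there were 108, 98.7 and 94.8 in FFC and 12.0, 16.2 and 13.4 in Chow. Relative to the mean of the 9 genes Havcr2 stood at -0.47, -0.71 and 0.48 (log2) in FFC and at -1.82, -1.89 and -2.11 in Chow, a mean difference of 1.70 that was smaller than that relative to T cell genes. The contrast between FFC 3 and Chow 3 rests on 1 library of each group. FFC 3 had the lowest FFC sum of the 9 genes and Chow 3 the highest Chow sum, so no other pair was as close. The sums were 4898 and 6298 in FFC 1 and FFC 2 and 1725 and 1921 in Chow 1 and Chow 2. The part of macrophage and monocyte genes in the difference of Havcr2 was not tested.

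**Figure D3:**
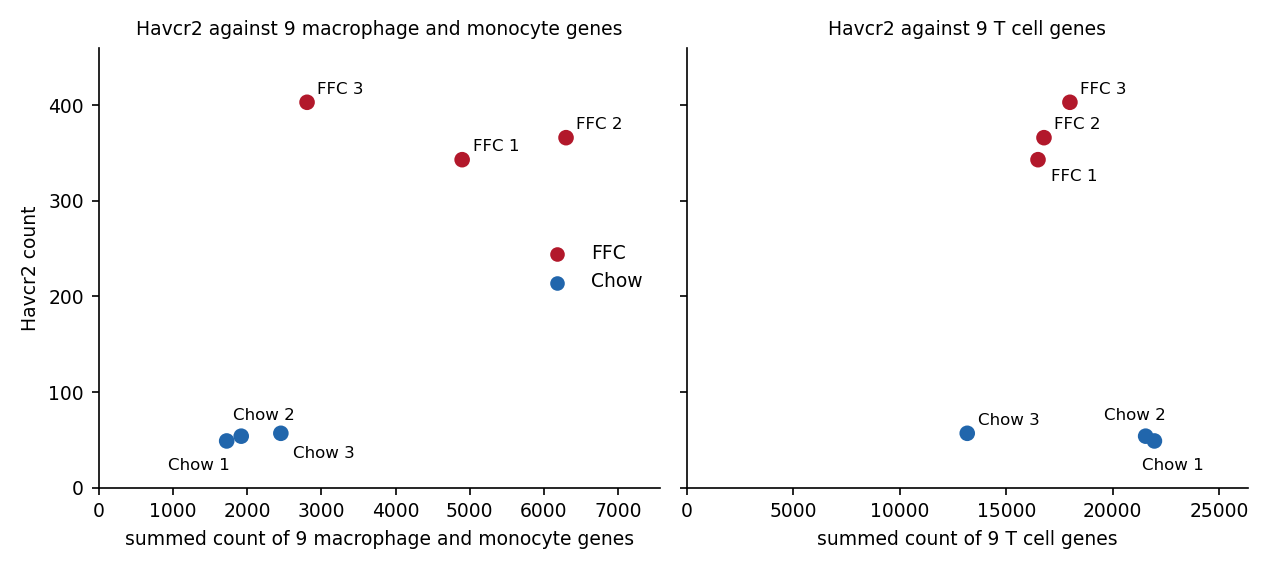
Havcr2 count in each library against the summed count of 9 macrophage and monocyte genes (left) and of 9 T cell genes (right), with FFC in red and Chow in blue. FFC 3 and Chow 3 lay close together in the macrophage and monocyte sum (2808 and 2455) and far apart in Havcr2 (403 and 57). The sum was 4898 and 6298 in FFC 1 and FFC 2 and 1725 and 1921 in Chow 1 and Chow 2.

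Other cells that can carry TIM-3 were represented by fewer genes. Of 7 NK cell genes 4 rose and 0 fell (4 and 0 after centring), with a median difference of 1.08 (0.69 after centring). Over all tested genes 17.4% were called higher (14.4% after centring) and the median was 0.43 (0.04 after centring). Klrd1, a chain of the CD94 receptors, rose by 1.85 (adjusted p = 0.030) and Klrk1, the activating receptor NKG2D, by 1.63 (adjusted p = 0.013), both of which activated T cells also use. Ncr1, which is more closely tied to NK cells, rose by 1.08 (adjusted p = 0.030), with 93, 81 and 73 counts in FFC and 54, 61 and 49 in Chow, under the floor in every library. The 7 genes summed to 3394, 3488 and 2537 counts in FFC and to 3087, 2137 and 1661 in Chow, so that Chow 1 had more than FFC 3. Nkg7 gave the largest part of each sum, with 1894, 1799 and 1540 counts in FFC and 2320, 1481 and 1126 in Chow. The mean centred log2 level of the 7, which weights genes alike, was -0.70, -0.64 and -0.85 in FFC. In Chow it was -1.27, -1.63 and -1.67. The count of 4 was 0 without FFC 1, FFC 2 or Chow 2 (5, 5 and 4 genes at an unadjusted p under 0.05) and 1 without Chow 1. Over the panel 1, 1, 2 and 7 genes were called without FFC 1, FFC 2, Chow 2 and Chow 1. The count was 4 without FFC 3, 5 without Chow 3 and 7 without both libraries of number 3. Over the 748 tested genes 229, 284 and 460 were called higher without FFC 3, Chow 3 and both. None of the 7 NK cell genes was at 0 in any library. Of 3 dendritic cell genes 1 rose, Xcr1, a chemokine receptor gene (1.00, adjusted p = 0.039), again with counts under the floor. Quantile normalization left it at 0.23 (adjusted p = 0.31), and it was not called without FFC 1, FFC 2, Chow 1 or Chow 2. The 3 summed to 757, 784 and 818 counts in FFC and to 789, 1021 and 926 in Chow, and none was at 0. Cd83 gave the largest part of each sum, with 622, 632 and 668 counts in FFC and 669, 908 and 819 in Chow. The mean centred log2 level of the 3 was -1.39, -1.38 and -1.04 in FFC and -1.50, -1.55 and -1.45 in Chow. Cd8a, of cytotoxic T cells, had 304, 342 and 272 counts in FFC and 383, 337 and 231 in Chow (0.46, adjusted p = 0.18). The part of NK and dendritic cell genes in the difference of Havcr2 was not tested.

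Of 16 listed genes, ligands and signalling partners of TIM-3 and other TIM family members, 7 were on the table. On the deposited scale 0 of the 7 passed limma's moderated test. At an unadjusted p under 0.05 there was 1, and voom called 0. Hmgb1, the one ligand gene measured, a nuclear protein that can be released from cells, had 1448, 1430 and 1352 counts in FFC and 1456, 1668 and 1275 in Chow (difference 0.44, adjusted p = 0.17). Zap70, a kinase next to the T cell receptor, differed by 0.47 (adjusted p = 0.13), and Lat, the adaptor that it phosphorylates, by -0.20 (adjusted p = 0.51). Plcg1, a phospholipase downstream of the receptor, differed by -0.05 (adjusted p = 0.92). The median difference of the 7 was 0.03 (-0.35 after centring), against 0.43 over all tested genes (0.04 after centring). Without Chow 3 and FFC 3, 3 of the 7 passed as higher, beside 460 of the 748 tested genes. The other members of the TIM family on the list were not on the table.

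Genes of factors and cytokines linked to Havcr2 transcription were called in 5 of 17 cases, each higher in FFC, or 29.4% against 17.4% of all tested genes. After centring 3 of the 17 were called, close to the 14.4% of all tested genes. The median difference of the 17 was 0.62 (0.23 after centring), against 0.43 over all tested genes (0.04 after centring). Maf, a transcription factor that with Prdm1 has been tied to co-inhibitory receptor genes in mouse T cells, rose by 1.12 (adjusted p = 0.036), with 348, 398 and 236 counts in FFC and 215, 252 and 162 in Chow. Prdm1 rose by 0.83 (adjusted p = 0.043; 0.45 after centring, adjusted p = 0.055). Stat4, which carries signals of interleukin 12, rose by 1.19 (adjusted p = 0.036). Il27, a subunit of a cytokine that can induce Havcr2, rose by 1.47 (adjusted p = 0.043) at only 42, 37 and 30 counts in FFC and 21, 12 and 24 in Chow, below the floor in every library. Il12b, the fifth, rose by 0.87 (adjusted p = 0.048, and 0.09 under quantile normalization, adjusted p = 0.72). Its counts also lay under the floor in every library.

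The T helper 1 regulator Tbx21, a factor reported to act on Havcr2, had 210, 220 and 223 counts in FFC and 248, 206 and 154 in Chow (0.62, adjusted p = 0.071). Jun, a part of AP-1, had 432, 408 and 412 in FFC and 483, 580 and 560 in Chow (0.12, adjusted p = 0.77; -0.27 after centring). Nfatc1 differed by 0.45 (adjusted p = 0.33) and Ebi3, the other subunit of interleukin 27, by 0.17 (adjusted p = 0.72). The 5 calls became 0 without FFC 1, FFC 2, Chow 1 or Chow 2. At an unadjusted p under 0.05 there were 6, 6, 7 and 6. Over the panel these fits called 1, 1, 7 and 2 genes. There were 8 calls without FFC 3, 7 without Chow 3 and 10 without both. In the same fits 229, 284 and 460 of the 748 tested genes were called higher. Under quantile normalization 0 of the 17 were called (3 at an unadjusted p under 0.05).

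Of 10 genes of other co-inhibitory receptors and of the ligands of PD-1, 5 rose and 0 fell, also after centring, beside 17.4% of all tested genes called higher (14.4% after centring). Their median difference was 0.97 (0.58 after centring), against 0.43 over all tested genes (0.04 after centring), and the highest was 1.61. Lilrb4a, an inhibitory receptor gene that myeloid cells and activated T cells share, rose by 1.61 (adjusted p = 0.020), with 5119, 4604 and 4328 counts in FFC and 1761, 2357 and 2354 in Chow. Tigit, a receptor of nectin-like proteins, rose by 1.55 (adjusted p = 0.024), with 1339, 1408 and 811 counts in FFC and 628, 612 and 434 in Chow. Cd96 rose by 1.54 (adjusted p = 0.026), Pdcd1lg2, a PD-1 ligand gene, by 0.99 (adjusted p = 0.036), and Cd244 by 0.94 (adjusted p = 0.039). The counts of Cd96 lay under the floor in every library, and those of Cd244 in every library but FFC 2. Pdcd1, which encodes PD-1, had 1198, 1805 and 607 counts in FFC and 642, 685 and 530 in Chow (1.32, adjusted p = 0.055).

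Ctla4 (0.67, adjusted p = 0.18), Lag3 (0.66, adjusted p = 0.23), Cd274 (0.47, adjusted p = 0.39) and Btla (0.03, adjusted p = 0.95) did not pass, and their groups overlapped. For 9 of the 10 genes FFC 3 was the lowest FFC library by count and for 0 the highest, whereas for Havcr2 it was the highest. Over all tested genes FFC 3 had the lowest FFC count for 59.2% and the highest for 24.6%. Per 100 counts of Pdcd1 there were 28.6, 20.3 and 66.4 counts of Havcr2 in FFC and 7.63, 7.88 and 10.8 in Chow. The 5 calls became 0 without FFC 1, FFC 2, Chow 1 or Chow 2. At an unadjusted p under 0.05 there were 6, 6, 7 and 6. Over the panel these fits called 1, 1, 7 and 2 genes. There were 7 calls without FFC 3, 5 without Chow 3 and 9 without both. In the same fits 229, 284 and 460 of the 748 tested genes were called higher. Cd244 and Pdcd1lg2 were not called after quantile normalization (adjusted p = 0.29 and 0.13).

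**Figure D4:**
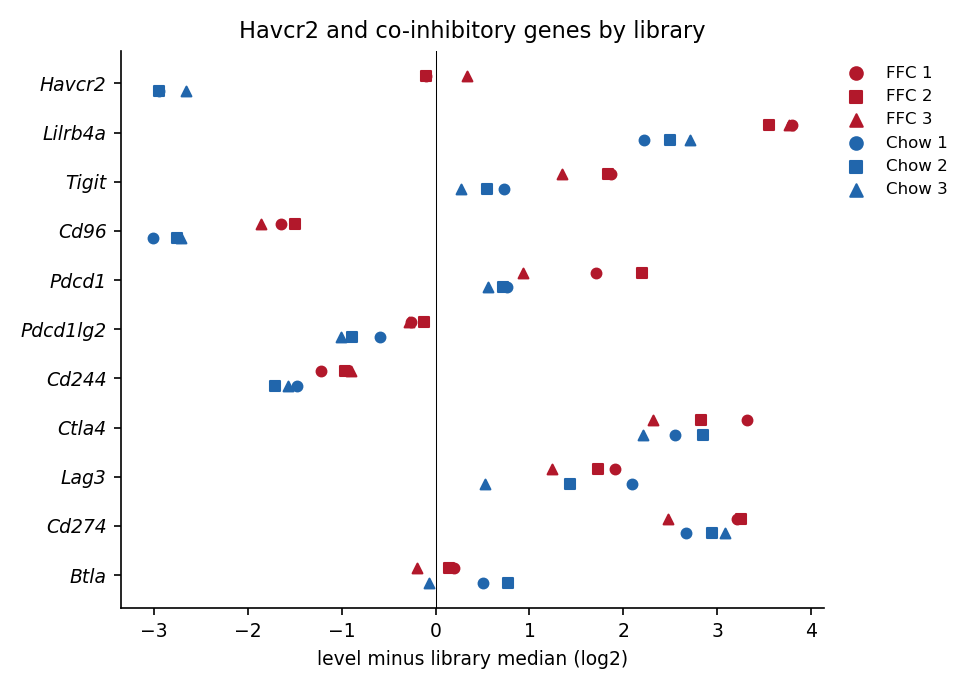
Level of Havcr2 and of 10 genes of co-inhibitory receptors and PD-1 ligands in each library, as log2 value minus the library's median (x axis), with genes ordered by difference, FFC in red above Chow in blue and symbols for library numbers. Havcr2 had the widest space between the groups, with FFC libraries at -0.10 to 0.34 and Chow libraries at -2.95 to -2.66.

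Among T helper 1 genes, the setting in which TIM-3 was first described, 5 of 14 rose and 0 fell (4 and 0 after centring). This stood beside 17.4% of all tested genes called higher (14.4% after centring). The median difference of the 14 was 0.88 (0.50 after centring), against 0.43 over all tested genes (0.04 after centring). Ifng, the gene of interferon gamma, rose by 1.86 (adjusted p = 0.013), with 4866, 4318 and 4758 counts in FFC and 2446, 2300 and 1026 in Chow. There were 7.05, 8.48 and 8.47 counts of Havcr2 per 100 of Ifng in FFC and 2.00, 2.35 and 5.56 in Chow. Ccl5, a chemokine gene of effector T cells, rose by 1.62 (adjusted p = 0.040) and Cxcr6, a receptor of lymphocytes in the liver, by 1.27 (adjusted p = 0.030). Il18rap, a chain of the interleukin 18 receptor, rose by 1.54 (adjusted p = 0.043; 1.15 after centring, adjusted p = 0.088) and, as in Havcr2, had its highest count in FFC 3. In all, 3 of the 14 genes had their highest FFC count in FFC 3 (21.4%), against 24.6% of the tested genes. Foxp3, which defines regulatory T cells, had 421, 592 and 327 counts in FFC and 601, 436 and 697 in Chow (0.10, adjusted p = 0.89). The 5 calls became 0 without FFC 1, FFC 2 or Chow 2 (7, 6 and 6 at an unadjusted p under 0.05). Over the panel these fits called 1, 1 and 2 genes, and the fit without Chow 1 called 7. There was 1 call without Chow 1, 7 without FFC 3, 7 without Chow 3 and 11 without both. In the last 3 of these fits 229, 284 and 460 of the 748 tested genes were called higher.

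The genes whose pattern was most like that of Havcr2 were found by the root mean square difference between their profiles and its own over the 6 libraries, with libraries centred on their medians and each gene on its mean. The difference between the groups dominates this measure, so these genes get no test here. The nearest was Pf4, at a distance of 0.54 on the log2 scale, with 474, 469 and 233 counts in FFC and 85, 87 and 90 in Chow. Ccl8 followed at 0.63, with 1232, 834 and 361 counts in FFC and 117, 144 and 160 in Chow, and C1qa at 0.68. The others, in order, were Cfp, the complement regulator properdin (0.72), Fcgr4 (0.73), Ccl21a, a chemokine gene of lymphoid tissue (0.75), C1qb (0.79), H2-M3, a non-classical MHC class I gene (0.79), Ms4a4a (0.83) and Ccl19, a chemokine gene that shares a receptor with Ccl21a (0.84).

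All 10 had their lowest FFC count in FFC 3, as did 59.2% of the tested genes and 73.1% of those called higher, whereas Havcr2 had its highest there. Even the nearest profile therefore differed from that of Havcr2 within the FFC group. A highest FFC count in FFC 3 was not particular to Havcr2, as 24.6% of the tested genes had it. Of the 9 T cell genes Cd3g, Cd4, Cd5, Cd28, Cd6 and Lat had it, and Cd3d, Cd3e and Zap70 did not. In Chow the counts of Pf4 and Ccl21a were as even as those of Havcr2 (307, 317 and 317 for Ccl21a).

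**Figure D5:**
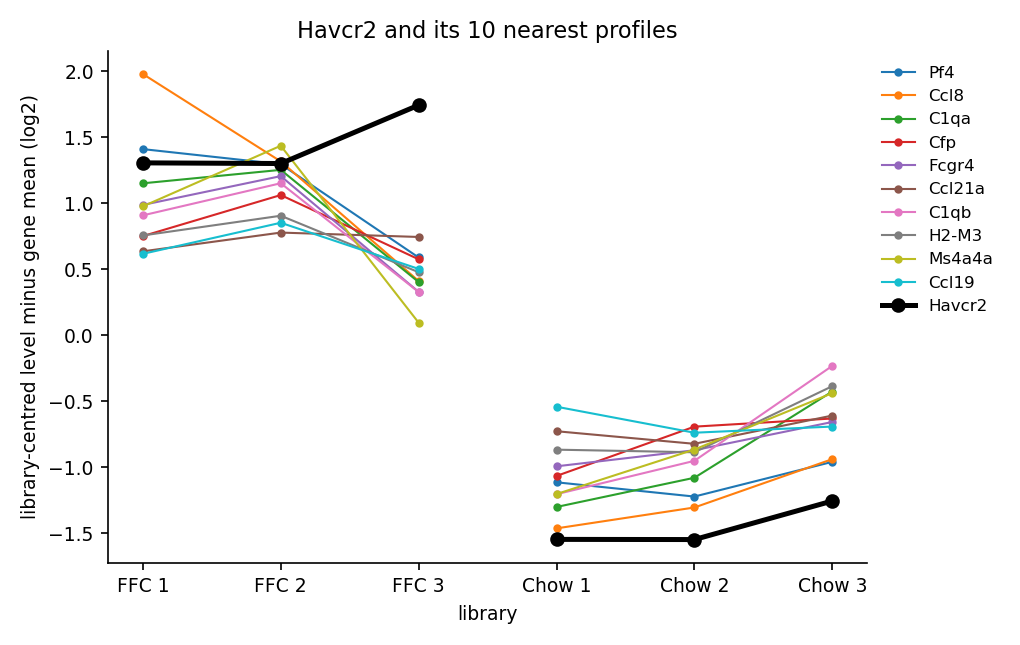
Profiles of Havcr2 (black) and of the 10 genes nearest to it over the 6 libraries, as log2 level minus the library's median and minus the gene's own mean. All 11 genes were higher in each FFC library than in each Chow library, and in FFC 3 Havcr2 lay above the other 10.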

How the data were processed

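Total RNA of hepatic CD4 T cells was isolated with a column kit, per the labels' protocols, and measured by nCounter, per the series title. The authors' deposited table holds log2 values of 750 genes for 6 libraries. Their normalization, background handling and genome build are not stated by the labels. Taken out of the log, all values of a library (100%) were multiples of 1 step to within 0.02 of a whole number, which gave counts and scale factors. Background subtraction before that step cannot be seen. Symbols were matched to RefSeq (GRCm38.p6), 734 as current symbols and 16 as synonyms.

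Groups came from the sample titles. The deposited values entered limma 3.58.1 in R 4.3.3 (lmFit, eBayes, no covariate, two-sided) for the 748 genes whose linear values averaged 20 or more, with Benjamini-Hochberg adjustment over all 748 at 0.05. The code was tested on simulated data. Havcr2 was in the fit of all genes, and no test of it is reported. Some genes of the lists are not reported here by name. Havcr2 was in no list, some genes stood in more than 1, and Havcr2 and the lists were chosen with earlier results of these data known. Named genes were the members of the ligand, regulator and co-inhibitory lists, up to 4 called members of the other lists with cell markers, the 10 nearest profiles, the 3 most different genes of the 50 nearest in level, and the 3 next largest differences. Nkg7 and Cd83 were named for their part in the summed counts. Alternatives were other scalings, a floor, pseudocounts of 10 and 0.1, filters, libraries left out, a replicate block and, added after the data were seen, voom on the counts. The 3 libraries per group limit the precision.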

Additional observations from a re-analysis of the deposited data

How the results depend on the processing

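The FFC minus Chow difference of Havcr2 was above 0 in all 18 alternatives run. It was 2.90 (log2) after centring, 2.65 under quantile normalization, 2.53 under cyclic loess, 1.79 with the background floor, 2.96 relative to T cell genes and 2.80 in unscaled counts, against 3.28 as deposited. Leaving out 1 library at a time it ran between 3.16 and 3.52, and its difference in place within the library between 43.3 and 48.3 percentage points.

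Calls across the panel depended more on the settings. There were 137 as deposited, 94.9% of them higher in FFC, and 144 after centring, of which 75% were higher. Quantile normalization gave 53 (30 higher, 23 lower), cyclic loess 62 (35 and 27), the floor 288, voom 216, and leaving out Chow 3 and FFC 3 together 475. Leaving out 1 library gave between 1 (without FFC 1 or FFC 2) and 290 (without Chow 3) calls.

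Of the lists, the ligand and partner genes had 1 call after centring and 3 without both libraries of number 3. The regulator genes had 3 after centring, 0 under quantile normalization and cyclic loess, 9 with the floor and 10 without both libraries of number 3, and 0 to 8 leaving out 1 library. The co-inhibitory genes had 3, 3 and 9 calls under quantile normalization, cyclic loess and without both, and 0 to 7 leaving out 1. The T helper 1 genes had 2, 2 and 11, and 0 to 7. Macrophage and monocyte genes had 0 to 8 leaving out 1. Dendritic cell genes had 0 under quantile normalization and cyclic loess, 2 with the floor and 2 without both, and 0 to 2 leaving out 1. NK cell genes had 1, 2 and 7, and 0 to 5. Over the 748 tested genes 280 were called higher with the floor and 460 without both libraries of number 3. Leaving out 1 library gave between 1 and 284 higher calls. The causes were not tested.

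The titles number the libraries 1 to 3 in both groups, but same-numbered libraries did not deviate together (correlations of deviations over genes of 0.02, -0.22 and -0.04), and none correlated best with its own number. With the replicate block, limma called 1 gene of the panel. The difference of Havcr2 was 3.28 as without the block. The regulator, co-inhibitory, T helper 1, macrophage and monocyte, dendritic cell and NK cell lists had 0 calls, with 7, 6, 7, 6, 2 and 5 members at an unadjusted p under 0.05. For the 72 single genes tested in these lists, 1366 repeats gave 1125 with the same call, 177 that lost and 64 that gained one, and 0 with a called direction turned. Counts near or under the floor limit what can be said of Havcr2 in Chow.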
